A study of Mus musculus with 26 samples.

Results

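The arrays described here compare neural stem cells that carried either of 2 MYBQKI fusions with cells of the same pool that carried QKItr. All cells were isolated from C57BL6 wild-type mouse embryos at E14.5 and received their transgene by lentivirus. The comparison holds 9 of the 26 arrays of the series: 3 with MYBQKI5, 3 with MYBQKI6 and 3 with QKItr, 1 of each from pools 1 to 3. For each pool the mean of both fusion arrays was set against the QKItr array, so n = 3 pools. The question is which genes the fusions move relative to a transgene named for QKI alone. The other 17 arrays carried MYBtr, eGFP or MYBQKI6 with suppression of Qk or of LacZ. Of these, MYBtr (3 arrays) and eGFP (6 arrays) are set beside the result where stated. The meaning of tr, the share of cells that expressed a transgene and the origin of the pools (separate animals or cultures, or not) are not in the labels. The p-values therefore cover the spread between these samples, which may be technical.

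MYB is a transcription factor that keeps blood and other progenitor cells dividing and binds DNA through a short AAC-containing core. QKI, encoded by Qk in the mouse, is a STAR-family protein that binds RNA and acts in splicing and in the making of myelin by oligodendrocytes. Angiocentric glioma, a childhood brain tumour, carries the fusion of MYB with QKI, and QKI5 and QKI6 name splice forms of QKI with different ends.

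Levels are log2 array signals and differences are on that scale. A gene is called where its Benjamini-Hochberg adjusted p, from limma with the pool as a block and over all 23152 genes, was under 0.05. Array medians over all probe sets ran between 5.61 and 5.73 on these 9 arrays. Neural stem and radial glia markers had list means of 8.1 to 8.4 on the fusion arrays and 8.3 to 8.4 with QKItr. The median gene stood at 5.01, and 1 of the 15 measured markers was below the 25th percentile of gene levels in both groups. Among the bright markers, Sox2 averaged 10.58 in fusion cells and 10.62 in QKItr cells. Fabp7 averaged 10.62 in fusion cells and 10.79 in QKItr cells. Microglial and immune markers had list means of 4.33 to 4.58 on the fusion arrays and 4.39 to 4.44 on the QKItr arrays. Pools differed more than groups: the pools separated along the first principal component (39.5% of the variance) and the fusions separated from QKItr along the next one (23.0%).

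With both fusions 482 genes rose and 352 fell relative to QKItr, together 834 of 23152 (3.6%). Of these, 181 rose and 112 fell by at least 2-fold. Within-pool differences had the same sign on all 6 fusion arrays for 827 of the 834 genes, where 20% of all genes had 1 sign throughout, and the 6 fusion arrays did not overlap the 3 QKItr arrays for 560 of them, where 6.79% of all genes did not overlap. The calls were made from the same arrays and differences, so neither count is separate support for them. The median difference over all genes was -0.01. With no block for the pool there were 68 calls (52 higher, 16 lower), and all 68 were among the 834. The count also changed when arrays were left out. It was 508 without MYBQKI6 of pool 1, 554 without QKItr of pool 1 and 414 without QKItr of pool 2. A pool without its QKItr array drops out of this paired fit together with its fusion arrays. Here and below, a fit of both fusions without a QKItr array thus lacks a whole pool, and its change is not that of 1 array. When each gene was read from its brightest probe set alone, 1 gene was called, Myb.

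**Figure D1:**
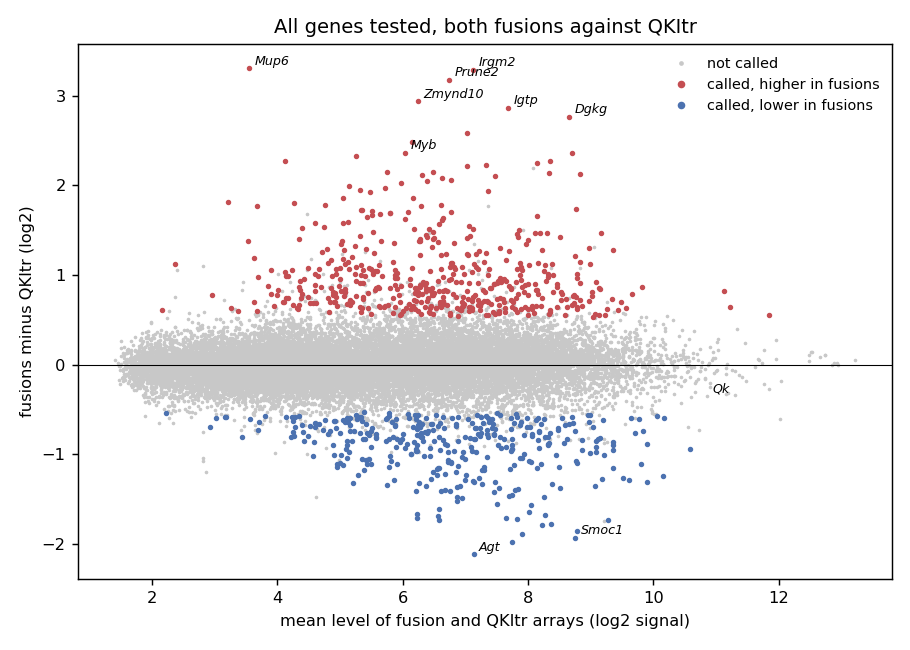
Difference of both fusions minus QKItr (log2, y axis) against the mean level of the 2 groups (log2 signal, x axis) for 23152 genes, 1 point each. Red points are the 482 genes called higher and blue points the 352 called lower; Mup6 lies at the dim end and Qk at the bright end.

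Myb itself, the gene carried by the fusions and not by QKItr, was higher on every fusion array. It had levels of 6.82, 6.80 and 7.34 with MYBQKI5 and 7.10, 7.89 and 7.38 with MYBQKI6, against 4.60, 4.64 and 5.34 with QKItr in pools 1 to 3. The groups did not overlap, and the difference was 2.36 ± 0.15 (SE, n = 3 pools; limma adjusted p = 0.000519). The array reads Myb through 18 probe sets, of which 17 were higher with the fusions. The brightest of them, 17239679, averaged 12.30 ± 0.43 with MYBQKI5 and 12.37 ± 0.46 with MYBQKI6, against 7.44 ± 0.36 with QKItr (SD, n = 3 each). Probe set 17232001 averaged 10.24 ± 0.75 with MYBQKI5 and 10.30 ± 0.62 with MYBQKI6, against 4.64 ± 0.16 with QKItr. Other Myb probe sets moved little, such as 17239665 at 4.17 with MYBQKI5 and 4.37 with MYBQKI6, against 4.49 with QKItr. Over all 269751 probe sets the paired limma fit called 0 (0%), with 26395 at an unadjusted p under 0.05 and a smallest adjusted p of 0.311. The fit of MYBQKI6 alone called 5 probe sets (0.00185%), with 17239679 and 17232001 among them (adjusted p = 0.0291 for both), and the fit of MYBQKI5 alone called 2 (0.000741%), these same probe sets (adjusted p = 0.0479 for both). Probe set 17239680, brighter than 17232001 on average, was not called with either fusion (adjusted p = 0.0959 with MYBQKI6 and 0.164 with MYBQKI5).

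Qk was not called at the gene level. It had levels of 10.70, 10.74 and 10.60 with MYBQKI5 and 10.49, 10.79 and 10.74 with MYBQKI6, against 11.43, 10.98 and 10.69 with QKItr. The ranges overlapped, and the difference was -0.36 ± 0.17 (SE, n = 3 pools; limma adjusted p = 0.357). None of its 15 probe sets was called in limma, and 1 had an unadjusted p under 0.05. Probe set 17340760 stood apart by fusion: it averaged 10.98 ± 0.11 with MYBQKI6 and 12.14 ± 0.59 with MYBQKI5, while QKItr cells had 12.25 ± 0.52 (SD, n = 3 each). The difference of MYBQKI6 minus MYBQKI5 there was -1.16 with a 95% interval of -1.85 to -0.48, and did not pass over all probe sets (limma adjusted p = 1.00). This probe set averaged 10.94 with MYBtr and 11.20 with eGFP. A map of these probe sets to the exons of either splice form was not used here.

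**Figure D2:**
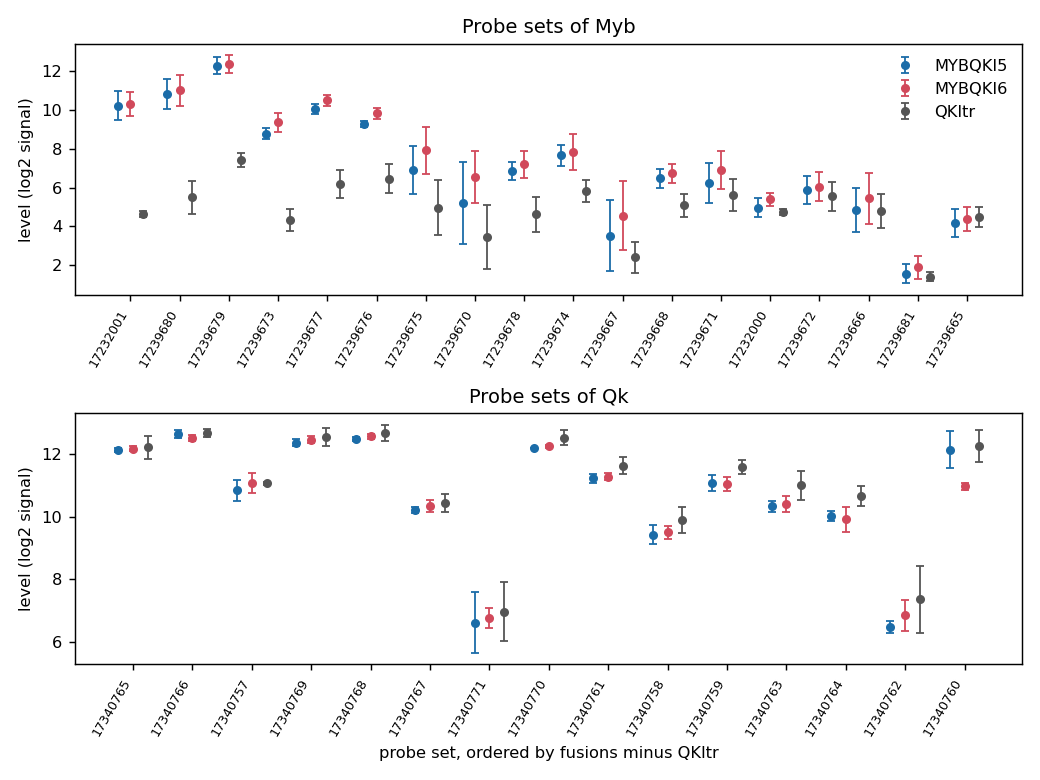
Level (log2 signal, y axis) of the 18 probe sets of Myb (upper panel) and the 15 of Qk (lower panel), ordered along the x axis by fusions minus QKItr. Points are means and bars the SD of 3 arrays; the Myb probe sets at the left stand well above QKItr with both fusions, and the Qk probe set at the right is lower with MYBQKI6 alone.

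Among the 12 genes named for the largest rises, 3 belong to families that interferon is known to induce. Irgm2 and Igtp encode immunity-related GTPases, which act against pathogens in vacuoles, and Oas1g belongs to the oligoadenylate synthetases, which sense double-stranded RNA. Irgm2 had levels of 8.61, 8.71 and 8.13 with MYBQKI5 and 9.59, 10.15 and 7.43 with MYBQKI6, against 6.20, 5.58 and 4.66 with QKItr. Every fusion array lay above every QKItr array, and the rise was 3.29 ± 0.18 (SE, n = 3 pools; limma adjusted p = 0.000429), a 9.80-fold difference. Irgm2 was read from 2 probe sets only. Igtp had 9.28, 9.18 and 8.55 with MYBQKI5 and 9.69, 9.97 and 8.03 with MYBQKI6, against 7.09, 6.47 and 5.19 with QKItr. These groups did not overlap either, and the rise was 2.87 ± 0.16 (SE, n = 3 pools; limma adjusted p = 0.000429). Oas1g had 4.72, 5.71 and 5.14 with MYBQKI5 and 5.44, 6.99 and 3.55 with MYBQKI6, against 3.26, 3.02 and 2.69 with QKItr, with a rise of 2.27 ± 0.29 (SE, n = 3 pools; limma adjusted p = 0.00718). QKItr cells were below the 25th percentile of gene levels (3.79) for Oas1g, and close copies of it could share its probes. For all 3 genes the lowest QKItr array was that of pool 3 and the highest fusion array was MYBQKI6 of pool 2.

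The promoters of Irgm2 and Igtp and of other interferon response genes that rose, Isg15 and Stat2, are shown because they hold letters of the interferon-stimulated response element, searched as GAAA, NN and GAAA in a row on either strand and set in capitals. The sequences are the 250 bases before the RefSeq start on GRCm38.p6.
Irgm2, chr11:58214727-58214976 plus strand: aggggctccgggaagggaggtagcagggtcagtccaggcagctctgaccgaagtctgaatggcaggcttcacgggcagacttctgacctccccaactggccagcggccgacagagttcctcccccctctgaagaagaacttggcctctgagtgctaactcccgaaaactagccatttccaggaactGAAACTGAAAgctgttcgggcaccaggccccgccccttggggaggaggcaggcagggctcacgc
Igtp, chr11:58199306-58199555 plus strand: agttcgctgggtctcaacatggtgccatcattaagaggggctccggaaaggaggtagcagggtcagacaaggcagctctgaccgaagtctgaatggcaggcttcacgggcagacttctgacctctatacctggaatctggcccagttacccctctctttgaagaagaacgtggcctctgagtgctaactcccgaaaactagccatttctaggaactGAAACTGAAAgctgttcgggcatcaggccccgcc
Isg15, chr4:156200819-156201068 minus strand: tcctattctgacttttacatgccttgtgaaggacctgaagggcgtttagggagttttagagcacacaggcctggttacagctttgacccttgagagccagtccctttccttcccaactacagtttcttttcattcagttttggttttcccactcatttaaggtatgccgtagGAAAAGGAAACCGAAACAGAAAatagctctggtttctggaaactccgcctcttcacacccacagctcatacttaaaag
Stat2, chr10:128270248-128270497 plus strand: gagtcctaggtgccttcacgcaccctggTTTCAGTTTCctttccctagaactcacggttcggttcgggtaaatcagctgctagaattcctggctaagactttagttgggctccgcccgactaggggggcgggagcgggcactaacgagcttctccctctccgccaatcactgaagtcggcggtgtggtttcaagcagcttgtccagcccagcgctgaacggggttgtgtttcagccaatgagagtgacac
In Isg15 the capitals cover 3 overlapping matches. The Irgm2 and Igtp sequences read alike around their match, so these matches are not separate instances. This motif was searched after the interferon genes had been seen. In windows of 250 bases before to 50 after the start, 7 of the 9 rising interferon list members with a RefSeq window held it (77.8%), and so did 36 of 386 genes called higher (9.33%), 8 of 275 called lower (2.91%) and 3.89% of the 17706 tested genes with a window. The list was drawn from known interferon response genes, so its share could be high whatever these arrays showed. The genes called higher include its rising members. A match is a description of letters and not of a bound site.

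The interferon response list had the largest median difference of the 24 lists. Of 16 measured members, 10 rose and 0 fell, where 2.08% of all genes rose and 1.52% fell, and the median difference was 1.44 against -0.01 over all genes. Ifih1, a sensor of viral double-stranded RNA, had 9.41, 9.36 and 9.28 with MYBQKI5 and 10.16, 10.17 and 8.52 with MYBQKI6, against 8.39, 7.53 and 5.72 with QKItr, a rise of 2.27 ± 0.28 (SE, n = 3 pools; limma adjusted p = 0.00673). Irf7, a transcription factor that amplifies interferon production, had 5.63, 6.66 and 6.08 with MYBQKI5 and 6.19, 7.56 and 5.10 with MYBQKI6, against 4.36, 4.95 and 4.11 with QKItr, a rise of 1.73 ± 0.16 (SE, n = 3 pools; limma adjusted p = 0.00291). Both genes were higher on all fusion arrays than on any QKItr array. Stat2, which carries the interferon signal to the nucleus, had 8.72, 9.07 and 9.11 with MYBQKI5 and 9.12, 9.57 and 8.62 with MYBQKI6, against 7.90, 7.62 and 7.17 with QKItr, a rise of 1.47 ± 0.16 (SE, n = 3 pools; limma adjusted p = 0.0042). Isg15, a ubiquitin-like modifier, rose by 1.41 (limma adjusted p = 0.024), with fusion and QKItr arrays that overlapped. Ifit1, Xaf1, Mx1, Rsad2, Oas1a and Bst2 also rose, by 0.86 to 2.25. Among the 6 members not called, Usp18 had a difference of 2.19 (adjusted p = 0.0644), Oasl2 of 1.77 (adjusted p = 0.0634) and Ifit3 of -0.20 (adjusted p = 0.74).

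The size of this shift differed by pool. The list median was 0.60 in pool 1, 1.53 in pool 2 and 2.12 in pool 3. The mean level of the list was 7.02, 7.54 and 7.34 with MYBQKI5 and 7.32, 8.18 and 6.75 with MYBQKI6, against 6.63, 6.34 and 4.90 with QKItr. The wide difference in pool 3 thus stood beside a low QKItr level there, and eGFP cells of pool 3 were also low, at 5.10 against 6.32 and 6.87 in pools 1 and 2. The G2 and M phase list moved with the pools in all groups, with levels of 4.92, 6.94 and 7.35 with MYBQKI5 and 5.00, 6.17 and 7.62 with MYBQKI6, against 4.77, 6.35 and 7.96 with QKItr; its part in the interferon result was not tested. Against eGFP, which shares the fusion arrays, 14 of the 16 members rose, where 2.47% of all genes rose and 4.58% were called in either direction, and the median was 1.32. Without the pool block 1 of the 16 was called higher. Every sample carried lentivirus, QKItr and eGFP included, and a part of viral delivery in the interferon result was not tested.

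**Figure D3:**
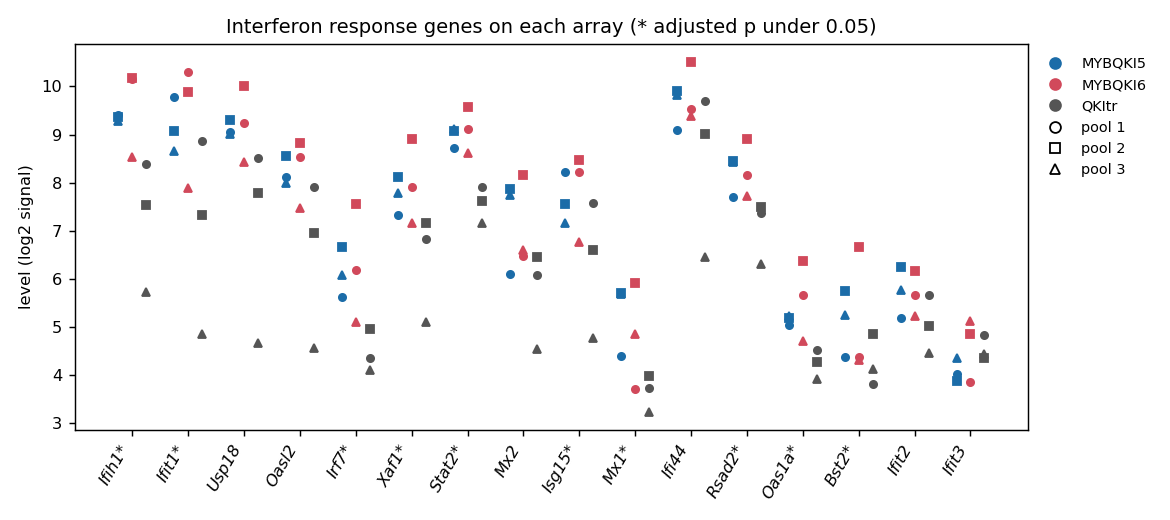
Level (log2 signal, y axis) of the 16 measured interferon response genes (x axis, ordered by difference) on each of the 9 arrays, coloured by construct and shaped by pool. Asterisks mark the 10 genes called higher; the QKItr array of pool 3 (grey triangles) is the lowest for most of them.

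Prune2, a BCH-domain protein and another of the named rises, had 7.80, 7.99 and 8.08 with MYBQKI5 and 8.82, 8.97 and 8.30 with MYBQKI6, against 5.12, 4.98 and 5.34 with QKItr, a rise of 3.18 ± 0.15 (SE, n = 3 pools; limma adjusted p = 0.000429). Dgkg, a diacylglycerol kinase, had 9.84, 9.88 and 9.88 with MYBQKI5 and 10.51, 10.51 and 9.64 with MYBQKI6, against 7.40, 7.08 and 7.34 with QKItr, a rise of 2.77 ± 0.15 (SE, n = 3 pools; limma adjusted p = 0.000429). In both genes all fusion arrays stood more than 2 log2 units above all QKItr arrays. Kit, a receptor tyrosine kinase that binds stem cell factor and one of the described MYB targets, had 7.76, 8.20 and 8.60 with MYBQKI5 and 8.24, 8.64 and 8.43 with MYBQKI6, against 5.08, 5.79 and 6.32 with QKItr, a rise of 2.58 ± 0.15 (SE, n = 3 pools; limma adjusted p = 0.000429). Zmynd10, which helps assemble the dynein arms of cilia, had 7.04, 7.80 and 8.08 with MYBQKI5 and 7.57, 8.10 and 7.67 with MYBQKI6, against 4.25, 4.49 and 5.57 with QKItr, a rise of 2.94 ± 0.20 (SE, n = 3 pools; limma adjusted p = 0.000763). The fusion and QKItr arrays did not overlap for these genes. Prelp, a leucine-rich proteoglycan of the matrix, rose by 2.36 (limma adjusted p = 0.00304) and Kif26b, a kinesin-family protein, by 2.49 (adjusted p = 0.000519). Mup6 had the largest named rise, 3.31 ± 0.46 (SE, n = 3 pools; limma adjusted p = 0.00958), but its fusion arrays spread from 2.95 to 7.46. It belongs to the major urinary proteins, a family of near-identical genes, so its value cannot be assigned to 1 gene, and its QKItr level of 1.90 was below the 25th percentile of gene levels. It was not called without MYBQKI6 of pool 2.

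Only part of the described MYB targets moved. Of 18 measured members, 3 rose and 0 fell, where 2.08% of all genes rose and 1.52% fell, with a list median of 0.07: Kit, Cdk6 and Ada. Cdk6, a kinase of the G1 phase, had 8.73, 8.64 and 8.98 with MYBQKI5 and 9.11, 9.30 and 9.07 with MYBQKI6, against 7.89, 6.92 and 7.14 with QKItr, a rise of 1.65 ± 0.19 (SE, n = 3 pools; limma adjusted p = 0.00565). Ada, adenosine deaminase, rose by 1.03 (limma adjusted p = 0.0129); read from its brightest probe set its difference was -0.064. Myc, a described target as well, differed by -0.22 (adjusted p = 0.556) and Bcl2, which protects from cell death, by 0.70 (adjusted p = 0.0778). Of the 3 MYB family genes, Mybl1 rose by 0.64 (adjusted p = 0.026) beside Myb, and Myb alone was called without MYBQKI6 of pool 2 or any 1 of the QKItr arrays. The STAR family and described QKI targets, 16 measured, held 2 rises, Cnp at 0.73 and Map1b at 0.79, and 1 fall, Egr2 at -0.86. This became 0 rises and 0 falls without QKItr of pool 2, and 1 rise and 0 falls without MYBQKI6 of pool 1, MYBQKI6 of pool 2 or QKItr of pool 1. Without MYBQKI5 of pool 1 or pool 3 the fall alone was lost.

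The core letters recognised by MYB, AACNG on either strand, are frequent in windows of 300 bases. They lay in the windows of 7 of the 12 named rises, 83.4% of genes called higher, 84.0% of genes called lower and 81.6% of tested genes with a window. The upstream 250 bases of Kif26b and Prelp are shown with the matches in capitals.
Kif26b, chr1:178528875-178529124 plus strand: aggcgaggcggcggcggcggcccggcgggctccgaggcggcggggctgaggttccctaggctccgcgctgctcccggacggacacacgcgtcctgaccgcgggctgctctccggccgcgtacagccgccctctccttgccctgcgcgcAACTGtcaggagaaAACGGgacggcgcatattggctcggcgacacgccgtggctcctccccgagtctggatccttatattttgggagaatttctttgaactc
Prelp, chr1:133921402-133921651 minus strand: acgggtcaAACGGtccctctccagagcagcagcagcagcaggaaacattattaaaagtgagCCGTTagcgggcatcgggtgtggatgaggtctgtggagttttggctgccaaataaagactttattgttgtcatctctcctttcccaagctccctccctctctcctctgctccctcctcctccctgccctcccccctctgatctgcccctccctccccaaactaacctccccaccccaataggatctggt
The Kit window held no match, which says only that these letters are not in that window. In the Irgm2 and Igtp sequences above, AACTG lies inside GAAACTGAAA, so both motifs read the same bases there.

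Agt had the largest named fall. It encodes angiotensinogen, which astrocytes make in the brain, and had 5.06, 6.99 and 6.47 with MYBQKI5 and 5.23, 6.02 and 6.66 with MYBQKI6, against 7.04, 8.90 and 8.64 with QKItr, a difference of -2.12 ± 0.14 (SE, n = 3 pools; limma adjusted p = 0.000519). All fusion arrays were below all QKItr arrays. Ednrb, an endothelin receptor of glial and progenitor cells, had 6.78, 7.88 and 7.61 with MYBQKI5 and 6.83, 7.08 and 7.82 with MYBQKI6, against 9.21, 9.22 and 8.95 with QKItr, a difference of -1.79 ± 0.20 (SE, n = 3 pools; limma adjusted p = 0.00518). Sox8, a SoxE factor active in oligodendrocyte development, had 7.34, 7.69 and 7.86 with MYBQKI5 and 6.69, 7.04 and 8.27 with MYBQKI6, against 9.23, 9.22 and 9.33 with QKItr, a difference of -1.78 ± 0.18 (SE, n = 3 pools; limma adjusted p = 0.0033). The QKItr arrays lay close together for Sox8, and no fusion array reached them. Ttyh1, a membrane protein of the tweety family, had 6.90, 7.24 and 6.89 with MYBQKI5 and 6.18, 6.96 and 7.54 with MYBQKI6, against 9.16, 8.85 and 8.50 with QKItr, a difference of -1.89 ± 0.23 (SE, n = 3 pools; limma adjusted p = 0.00606).

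Several receptors and surface proteins were among the other named falls. Grm3, a metabotropic glutamate receptor, had 4.16, 6.36 and 6.81 with MYBQKI5 and 4.44, 5.34 and 7.13 with MYBQKI6, against 6.41, 7.51 and 8.42 with QKItr. Its groups overlapped across pools, since the QKItr array of pool 1 was below some fusion arrays of pool 3. Each within-pool difference was negative, which the naming rule required, with a mean of -1.74 ± 0.15 (SE, n = 3 pools; limma adjusted p = 0.00269). Cntn1, a cell adhesion molecule, differed by -1.73, Kcnma1, a potassium channel, by -1.69 and Adcyap1r1, the receptor for the peptide PACAP, by -1.69. Smoc1, a secreted matrix-associated protein, differed by -1.93, Xylt1, which starts glycosaminoglycan chains on proteoglycans, by -1.86, Adgrg1, an adhesion receptor, by -1.73 and Cyp2j9, a cytochrome, by -1.71 (limma adjusted p of 0.0028 to 0.022 for these 7). Falls were larger in pool 1 than in pool 3 for 11 of the 12 named genes, Agt being the exception. All 24 genes named for size were also called, in the same direction, against eGFP, where 4.58% of all genes were called in either direction. That comparison shares the fusion arrays and is no separate support. Without the pool block 12 of the 24 were not called, in a fit that called 68 of all 23152 genes.

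**Figure D4:**
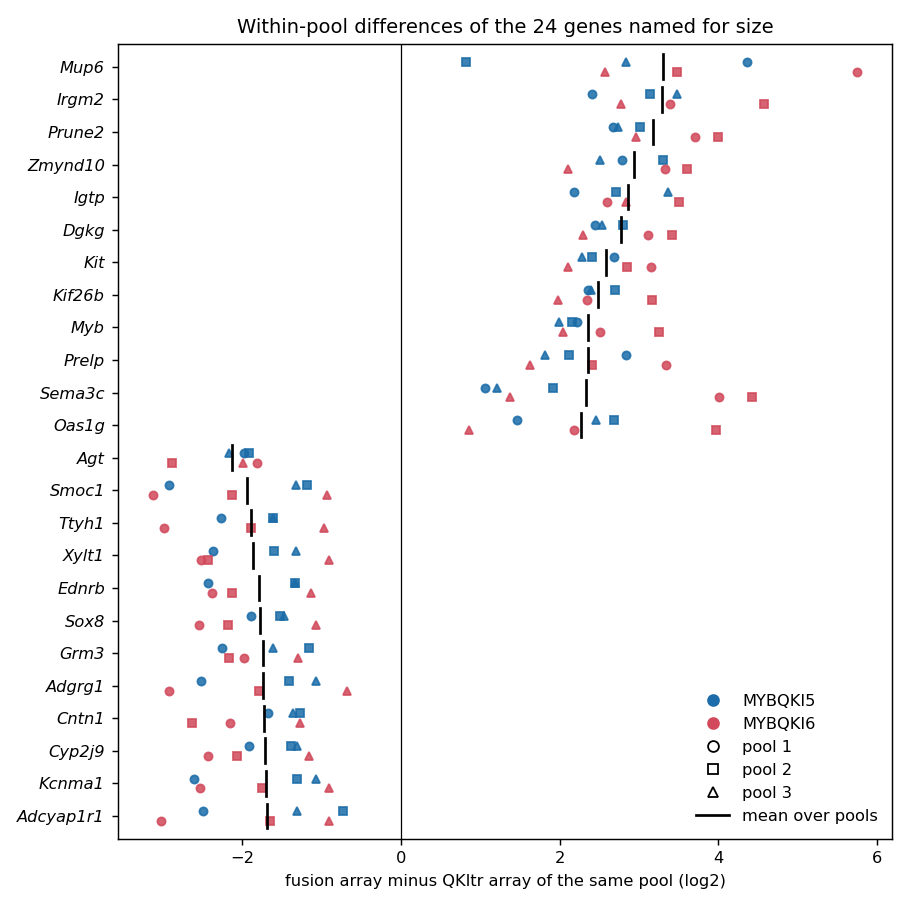
Fusion array minus QKItr array of the same pool (log2, x axis) for the 24 genes named for size (y axis), with 6 points per gene coloured by fusion and shaped by pool. Black bars are means over pools. By the naming rule all points of the upper 12 genes lie above 0 and all points of the lower 12 below it.

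Astrocyte and oligodendrocyte precursor markers fell in part. Of 17 measured astrocyte markers 6 fell and 1 rose, where 1.52% of all genes fell and 2.08% rose, with a list median of -0.56. Gfap, an intermediate filament, had 4.89, 5.17 and 4.68 with MYBQKI5 and 4.87, 4.30 and 4.83 with MYBQKI6, against 6.24, 6.26 and 5.40 with QKItr, a difference of -1.18 ± 0.18 (SE, n = 3 pools; limma adjusted p = 0.0133). Gjc3, a connexin, was counted in this list but is not particular to astrocytes. It had 9.78, 9.03 and 9.43 with MYBQKI5 and 10.02, 8.91 and 10.02 with MYBQKI6, against 11.04, 10.55 and 10.73 with QKItr. The difference was -1.24 ± 0.14 (SE, n = 3 pools; limma adjusted p = 0.00539). Both were lower on all fusion arrays than on any QKItr array. Hepacam, Fgfr3, S100b and Aqp4 also fell, with differences of -1.27, -0.98, -0.74 and -0.73, and Slc4a4, a bicarbonate transporter, rose by 0.61 (limma adjusted p = 0.0484). Aldh1l1 differed by -0.07 (adjusted p = 0.869) and Gja1 by 0.33 (adjusted p = 0.252). Without QKItr of pool 1, and so without that pool, 2 astrocyte markers fell and Gfap was not among them (adjusted p = 0.0608). Without the pool block 0 astrocyte markers fell. No astrocyte marker rose when 1 array was left out, other than without MYBQKI5 of pool 2 or MYBQKI6 of pool 3, nor after quantile normalization or median centring. In bulk samples fewer cells of a type and less RNA per cell cannot be told apart.

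Among 14 oligodendrocyte precursor markers 5 fell and 0 rose, where 1.52% of all genes fell and 2.08% rose, with a median of -0.29. Cspg4, the NG2 proteoglycan, had 5.61, 6.62 and 6.34 with MYBQKI5 and 5.73, 6.01 and 6.31 with MYBQKI6, against 7.37, 8.08 and 7.42 with QKItr, a difference of -1.52 ± 0.16 (SE, n = 3 pools; limma adjusted p = 0.00349). Its groups did not overlap. Olig1, Pcdh15, Lhfpl3 and Sox8 were the other members that fell. The lineage factors Olig2 and Sox10 differed by -0.33 (limma adjusted p = 0.391) and -0.01 (adjusted p = 0.983), and Pdgfra, the receptor that drives precursor division, by 0.66 (adjusted p = 0.0747). Without the pool block 1 of the 14 fell, and without MYBQKI6 of pool 3 or QKItr of pool 3, 1 rose. Of 14 myelinating oligodendrocyte markers 1 rose, Cnp, and 0 did without MYBQKI6 of pool 1 or QKItr of pool 2. Of 17 neuron markers 1 rose, Neurod1, and 0 did without MYBQKI5 of pool 1 or QKItr of pool 2, while 1 fell without QKItr of pool 3. In lists of this size 1 call already exceeds the 2.08% of all genes that rose. Single calls are therefore not read as results about a list. Of 15 neural stem and radial glia markers, 13 microglial and immune markers and 13 vascular and fibroblast markers none was called in limma. At an unadjusted p under 0.05 these lists had 5, 2 and 1 members, where 3654 of all 23152 genes did. Nes, an intermediate filament of neural stem cells, came closest among the stem cell markers, at -0.59 (adjusted p = 0.0532).

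**Figure D5:**
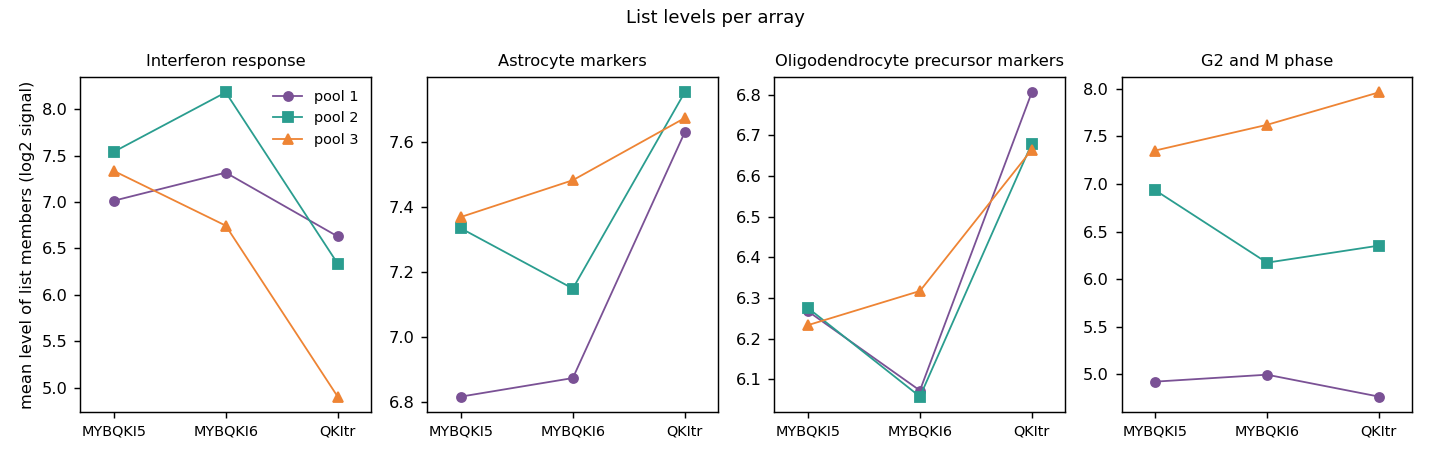
Mean level of the measured members of 4 lists (log2 signal, y axis, with a scale of its own in each panel) on the MYBQKI5, MYBQKI6 and QKItr arrays (x axis), joined by pool. Fusion arrays are above QKItr of the same pool for the interferon response and below it for both glial lists, while the G2 and M phase list orders the pools.

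Matrix, receptor and early response genes moved in both directions. Of 26 extracellular matrix and adhesion genes 5 rose and 3 fell, where 2.08% of all genes rose and 1.52% fell, the shares that also stand beside the next lists. Fn1, fibronectin, had 8.94, 10.37 and 10.12 with MYBQKI5 and 9.68, 10.61 and 9.66 with MYBQKI6, against 6.27, 8.40 and 8.64 with QKItr, a rise of 2.13 ± 0.28 (SE, n = 3 pools; limma adjusted p = 0.00817), with no overlap, and Itga5, a subunit of a fibronectin receptor, rose by 1.09 (limma adjusted p = 0.0221). Tnfaip6 and Fras1 rose by 1.94 and 2.06, while Itgb8, an integrin subunit that activates TGF-beta, differed by -1.07 (adjusted p = 0.0092). Of 20 receptor tyrosine kinases Kit and Epha4 rose and Fgfr3, Erbb4, Ephb2, Ntrk2 and Ntrk3 fell. The 5 falls became 2 without MYBQKI6 of pool 1 or QKItr of pool 1, 3 without MYBQKI6 of pool 2 and 1 without QKItr of pool 2. The 2 rises became 1 without MYBQKI5 of pool 3, MYBQKI6 of pool 1, MYBQKI6 of pool 2, QKItr of pool 1 or QKItr of pool 2. Among 15 immediate early genes Fos, which had 6.97, 7.01 and 7.05 with MYBQKI5 and 6.88, 6.83 and 7.08 with MYBQKI6, against 9.11, 8.66 and 7.54 with QKItr, fell, with a difference of -1.46 (adjusted p = 0.031), as did Nr4a1 and Egr2, and Atf3 rose by 0.72. The QKItr level of Fos was highest in pool 1, and none of the 15 fell in limma without QKItr of pool 1. That fit lacks the fusion arrays of pool 1 as well, so the change cannot be assigned to the QKItr array. The count of 3 falls became 1 without MYBQKI5 of pool 1, MYBQKI6 of pool 1, MYBQKI6 of pool 2 or QKItr of pool 2, and 5 without QKItr of pool 3, and none rose without MYBQKI6 of pool 1, MYBQKI6 of pool 2, QKItr of pool 2 or QKItr of pool 3.

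Of 15 Notch pathway genes the ligand Dll4 rose by 1.43 (limma adjusted p = 0.0175) and the ligand Dll1 fell, at -0.65 (adjusted p = 0.0257). No Notch gene fell without QKItr of pool 1 or QKItr of pool 2, and 3 did without QKItr of pool 3. Frat2, an activator of Wnt signalling, was the only 1 of 16 Wnt genes called, with 7.65, 6.67 and 6.93 with MYBQKI5 and 8.29, 7.88 and 6.80 with MYBQKI6, against 5.04, 5.12 and 5.59 with QKItr, a rise of 2.12 ± 0.26 (SE, n = 3 pools; limma adjusted p = 0.00673). The Wnt list had 2 rises without MYBQKI5 of pool 1 or QKItr of pool 3, and 1 fall without MYBQKI5 of pool 2. Of 15 cholesterol synthesis genes Hmgcs1 and Msmo1 fell, with differences of -0.89 (adjusted p = 0.0484) and -0.68 (adjusted p = 0.0286). The count of 2 falls became 0 without MYBQKI6 of pool 1, MYBQKI6 of pool 2 or QKItr of pool 1, 3 without QKItr of pool 2, and 1 without MYBQKI5 of pool 1, MYBQKI5 of pool 3 or QKItr of pool 3. Of 15 p53 targets Gadd45a rose by 1.01. Among the G1 genes Ccnd3, a cyclin, had a difference of -0.54 (adjusted p = 0.0464), a call that was lost when any 1 array other than MYBQKI5 of pool 1 was left out (adjusted p up to 0.246), beside the rise of Cdk6, which was called in every such fit. None of the 17 S phase, 17 G2 and M phase, 16 BMP and TGF-beta, 15 MAPK output and 17 stress response genes was called in limma. In that order 1, 0, 7, 6 and 4 of them had an unadjusted p under 0.05, where 3654 of all 23152 genes did.

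Each fusion was also set against QKItr on its own, with shared QKItr arrays. MYBQKI6 called 1011 genes (4.37%), of which 584 were higher (2.52%) and 427 lower (1.84%). MYBQKI5 called 448 genes (1.94%), of which 246 were higher (1.06%) and 202 lower (0.872%). Of the 834 genes called for both together, 740 were called with MYBQKI6 and 439 with MYBQKI5. These counts do not show that the fusions differ. The test of MYBQKI6 minus MYBQKI5 called 0 genes (0%), with 768 at an unadjusted p under 0.05. Single arrays moved both counts. MYBQKI6 gave 206 and 181 calls when its own array of pool 1 or pool 2 was left out, 535 without QKItr of pool 1 and 267 without QKItr of pool 2. MYBQKI5 gave 94, 225 and 34 calls without MYBQKI5 of pools 1, 2 and 3, 145 without QKItr of pool 1 and 41 without QKItr of pool 2.

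Sema3c, a secreted semaphorin, had the widest gap between the fusions among the named genes. It had 8.40, 8.48 and 5.20 with MYBQKI6, 5.45, 5.97 and 5.04 with MYBQKI5 and 4.40, 4.05 and 3.83 with QKItr in pools 1 to 3. MYBQKI6 was far above MYBQKI5 in pools 1 and 2 and close to it in pool 3. The difference of MYBQKI6 minus MYBQKI5 was 1.87 with a 95% interval of 0.79 to 2.96, not called over all genes (limma adjusted p = 1.00). Prune2 differed by 0.75 between the fusions (95% interval 0.33 to 1.16) and Igtp by 0.23 (-0.31 to 0.76), neither called. Slc6a11, a GABA transporter of astrocytes, was called with MYBQKI6 at -1.96 (adjusted p = 0.0438) and had -1.52 with MYBQKI5 (adjusted p = 0.151) and -1.74 for both together (adjusted p = 0.0757).

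The same fusion arrays were set against MYBtr, the other MYB construct. No gene was called (0 of 23152, 0%) in limma, 1807 had an unadjusted p under 0.05 and the smallest adjusted p was 0.324. Myb differed by -0.01 (95% interval -0.27 to 0.24) and Irgm2 by 0.00 (-0.57 to 0.57). Prune2 averaged 8.33 with the fusions and 9.16 with MYBtr, a difference of -0.83 (-1.19 to -0.47). Prelp differed by -0.76 (-1.06 to -0.46) and Sema3c by -1.52 (-2.49 to -0.55). The list medians of fusions minus MYBtr were 0.15 for the interferon response, 0.20 for astrocyte markers and 0.11 for oligodendrocyte precursor markers, beside 1.44, -0.56 and -0.29 for fusions minus QKItr. Both comparisons use the same fusion arrays, and a p above the threshold does not show that fusions and MYBtr act alike.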

How the data were processed

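Total RNA was biotin-labelled and hybridised to Affymetrix arrays, per the labels. The table the authors deposited holds values of 0.223 to 14.6, a range of log2 signals. Summarization and normalization by the authors are not given in the sources used here. Of 269751 probe sets, 233753 named 1 gene, 5106 several and 30892 none. A gene's level was the mean over the probe sets naming it alone (median 8 per gene, 23152 genes, no filter).

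Fits used limma 3.58.1 in R 4.3.3 (lmFit, contrasts.fit, eBayes) on 6 columns, the fusion mean and QKItr of each pool, with pool as a block. Each fusion was tested in a fit of all 9 arrays, so the arrays of the other fusion entered its estimates of pool and spread. Leaving out a QKItr array takes its pool out of the 6-column fit, but not out of the 9-array fit. The number of arrays limits the precision. Same-pool samples deviated together from the means of their own groups. The 9 same-pool pairs had correlations of 0.332 to 0.671 (median 0.475), and 18 other pairs had a median of -0.297. Such deviations cancel within a group, so the negative median follows from the positive one and is no second observation.

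Named genes were the 12 largest rises and 12 largest falls that were called with 1 sign on all 6 fusion arrays, had a group above the 25th percentile and bore no predicted name, then 5 each way per fusion, Myb, Qk, and up to 3 of each of 24 lists with the smallest p. Other list members named were chosen after their values were seen. Members and lists were chosen with earlier results of these data known.

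In tests on simulated data the share of false calls lay slightly above the threshold when the genes' spreads followed limma's prior, and far above it when the spreads had a longer upper tail. A robust prior did not mend this, so the counts of called genes may hold more false calls than the threshold states. Promoter sequences came from RefSeq on GRCm38.p6. Figures used matplotlib 3.10.9 under Python 3.11.15.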

Additional observations from a re-analysis of the deposited data

How the results depend on the processing

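For both fusions against QKItr, the 834 calls became 68 without the replicate block and 1436 with all 12 arrays of the 4 constructs. They became 375 with the median of probe sets and 1 with the brightest probe set. Leaving out 1 array gave 414 to 945, where leaving out a QKItr array took its whole pool out of the fit. For MYBQKI5 the 448 calls became 12 without the replicate block, 95 with the median of probe sets, 16 with the brightest one and 729 with a trended variance prior, and 34 to 515 with 1 array left out. For MYBQKI6 the 1011 calls became 126, 406 and 26 under the same first 3 settings, and 181 to 977 with 1 array left out. Against MYBtr the 0 calls became 1 with the trended prior. They became 0 to 3 with 1 array left out, or its whole pool in the case of a MYBtr array. The 0 called probe sets of Myb became 3 without the replicate block, 4 with arrays entered singly, 7 with 12 arrays and 6 with the trended prior. The cause of these changes was not tested.

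Without the block 76.5% of calls were higher, against 57.8% with it. All 24 genes named for size kept their direction in every setting run. Their calls were lost for 12 without the block, 23 with the brightest probe set, 2 with the median of probe sets (Kcnma1 and Adcyap1r1) and 2 without MYBQKI6 of pool 2 (Mup6 and Adcyap1r1). Among named genes called with both fusions, Ada alone reversed, at -0.064 with the brightest probe set. Fits with eGFP or a robust prior, and named genes that were not called, were not counted for this. Chosen after seeing the data, a robust variance prior gave 835 calls and eGFP in place of QKItr 1060.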

Other observations

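Some called genes outside the naming rule and the lists were picked after their values were seen, and are given as values. The chemokine Ccl5 had 10.04, 9.31 and 8.08 with MYBQKI5 and 11.07, 10.57 and 7.29 with MYBQKI6, against 8.19, 7.95 and 5.64 with QKItr, with a rise of 2.14 (limma adjusted p = 0.000429), and Cxcl10, another chemokine, rose by 2.23 (adjusted p = 0.00304). Ccl5 was highest with MYBQKI6 of pool 1, and its groups overlapped across pools. Dhx58, a cytoplasmic sensor of viral RNA, rose by 1.98 (adjusted p = 0.000429) and Ifitm3, an interferon-induced membrane protein, by 2.03 (adjusted p = 0.003), with no overlap between groups in either. Set against MYBtr, which shares the fusion arrays, Ccl5 differed by 0.03 and Dhx58 by -0.02.

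Kcnj10, a potassium channel of glia, had 8.11, 6.40 and 6.86 with MYBQKI5 and 7.40, 6.45 and 7.35 with MYBQKI6, against 9.68, 7.76 and 8.04 with QKItr, a difference of -1.40 (limma adjusted p = 0.00796). Gli3, a transcription factor of the Hedgehog pathway, had 7.60, 6.61 and 6.88 with MYBQKI5 and 7.89, 7.41 and 6.65 with MYBQKI6, against 5.28, 5.22 and 5.71 with QKItr, a rise of 1.77 (adjusted p = 0.00817).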
